A study of Mus musculus with 2 samples.

Results

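The genes of the peroxisome outside straight-chain fatty acid oxidation were examined in regenerating mouse liver. They are the peroxins that build the organelle, its antioxidant enzymes, its membrane transporters and channels, and its remaining enzymes. Members were the rows that the deposited annotation assigns to the KEGG peroxisome pathway and not to fatty acid degradation, without *Mvk*, *Pmvk* and the *Dhrs* genes. This gave 68 of 34745 listed genes. The KO library was made from liver of miR-182-5p heterozygous knockout males, in which only 1 allele is lost, and the WT library from liver of wild-type males. Both groups were 8 to 10 weeks old and underwent partial hepatectomy (PH), in which 70% of the liver was removed. RNA was taken on day 3 after PH. Poly(A) RNA was sequenced as 1 library per genotype, called KO liver and WT liver below, and how many mice gave RNA to each is not stated. No spread between animals can be given, so no difference below was tested between the genotypes.

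Peroxisomes are small organelles bounded by a single membrane, and hepatocytes hold many of them. Their matrix proteins are made in the cytosol and carried in by receptors that read a short targeting signal, chiefly PEX5 and, for a smaller set, PEX7. Inside, oxidases shorten or break down lipids, amino acids, polyamines and purines and release hydrogen peroxide, which catalase destroys. Peroxisomes also complete bile acid side chains, begin the synthesis of ether lipids and detoxify glyoxylate. Many of their genes in rodent liver are controlled by the fatty acid receptor PPARα.

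miR-182-5p acts on messages that pair with its seed, bases 2 to 8. The mature sequence is shown because it is the molecule that the KO mice carry at a lower gene dose, with the seed in capitals. It was read from RefSeq (GRCm38.p6), where it lies at chr6:30165962-30165986 on the minus strand. Below it stand the 8-base matches found in the members' longest annotated 3′ UTR and the match in *Far1*, the member with the largest increase. Their capitals mark the bases that pair with the seed and, in the 8-base matches, also the last A, which pairs with base 1. The transcripts are those of GENCODE for GRCm38.
miR-182-5p: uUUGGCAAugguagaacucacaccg
*Pex5* 3′ UTR, chr6:124397166-124397195, minus strand: aagttgcattcTTGCCAAAttcccaaccaa
*Pipox* 3′ UTR, chr11:77880716-77880745, minus strand: tttgggtttctTTGCCAAAaacttaagcca
*Far1* 3′ UTR, chr7:113569209-113569238, plus strand: tcctcatgtgtTTGCCAAcacacactaatt

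The depth was 13247497 counts for KO liver and 13163348 for WT liver. Mitochondrially encoded genes, 13 in all, made up 51.7% of these reads in KO liver and 31.0% in WT liver. Library sizes were therefore scaled by TMM, which limits the weight of such genes (factors of 0.812 for KO and 1.23 for WT), and fold changes are given as log2 of KO over WT on that scale. The gene that was targeted, *Mir182*, was not analysed here, so no check of the genotype by its own RNA could be made. The tissue label was checked on hepatocyte markers, of which 9 of 10 were listed. *Alb*, which encodes albumin, had 339876 counts in KO liver and 536544 in WT liver, and the 9 markers had a median log2 fold change of 0.05. They did not all lie near it: *Apob*, apolipoprotein B, had 1517 counts in KO liver and 17808 in WT liver, or -2.96, and *Ahsg*, fetuin, was at -0.53, while the other 7 lay between -0.07 and 0.26. Markers of most other cell types lay further from 0. The 10 stellate cell markers had a median of -0.59 (1561 counts in KO against 3476 in WT), the 10 Kupffer cell and macrophage markers a median of -0.40 (1745 against 3642), the 10 endothelial markers a median of -0.42 (1650 against 2588) and the 9 proliferation genes a median of -0.83 (2193 against 5598), and none of these genes was at 0 in either library. The cholangiocyte list was at 0.40 (5 of 6 kept), the neutrophil list at 0.36 (4 of 7), the lymphocyte list at 0.25 (4 of 9) and the erythroid list at -0.59 (5 of 6). Their part in the values below was not tested. In whole liver, fewer cells of a type and less RNA per cell cannot be told apart.

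Peroxisome genes as a group differed little between the libraries. Of the 68 members, 62 had at least 10 counts over both libraries and were kept. Among them 2 were at least 2-fold higher in KO liver, *Far1* and *Nudt7*, against 9.46% of all 13561 genes kept. A further 3 were at least 2-fold lower, *Crat*, *Abcd2* and *Pxmp2*, against 9.94% of all genes kept. The median log2 fold change of the 62 members was -0.09, beside 0.00 for all genes, and the quartiles of the members lay at -0.33 and 0.23, closer together than the -0.44 and 0.43 of all genes. The members were also better counted than most genes, with a median of 7.68 FPKM in KO liver and 12.4 in WT liver beside 1.22 and 1.86 for all genes kept. Fold changes of genes with few counts spread more widely by counting error alone. The shares past 2-fold and the quartiles of members and of all genes are therefore not a like comparison. FPKM are the authors' values, scaled by gene length and depth, and allow levels to be compared between genes of a library.

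**Figure D1:**
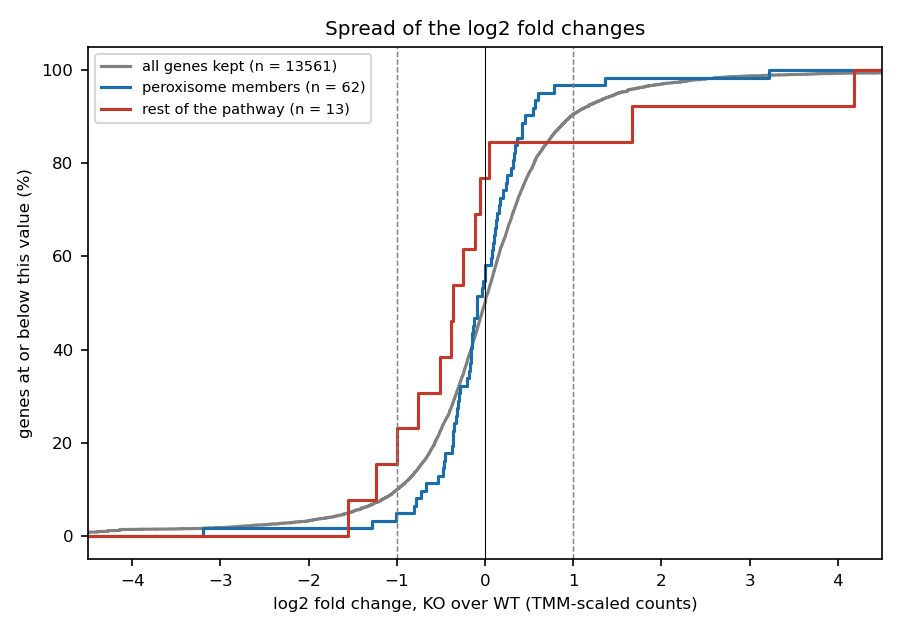
Percentage of genes (y axis) at or below each log2 fold change of KO over WT (x axis, TMM-scaled counts), for all 13561 genes kept, the 62 peroxisome members and the 13 other genes of the pathway, with dashed lines at 2-fold. The curve of the members is steeper than that of all genes, with 2 members at or above the upper line and 3 at or below the lower one. The members were better counted than most genes, so the steepness of the curves is not a like comparison.

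Exact 95% binomial intervals were computed for each fold change from the reads of both libraries. They cover counting error only and would be wider with the spread between mice. By this measure 26 of the 62 members had an interval wholly below 0, against 26.2% of all genes kept, and 17 had one wholly above 0, against 25.8% of all genes kept. The other 19 reached across 0, as did 6508 of the 13561 genes kept. Such intervals are narrower for genes with more counts, and the members were better counted than most genes. The shares of members and of all genes are therefore not a like comparison. A log2 fold change below 0 was found in 35 members, where 50% of all genes kept lay below 0.

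The direction of small differences depended on the scaling. With total counts in place of TMM, which lets the mitochondrial genes set the scale, the median of all genes moved to -0.60 and that of the members to -0.69. Then 11 members passed a 2-fold decrease, where 26.6% of all genes kept did, and 1 member passed a 2-fold increase, where 4.6% of all genes kept did. Relative to the median of all genes, the members' median was -0.09 under either scaling. Members below 0 numbered 35 with TMM and 58 with total counts, so every direction below is relative to the bulk of the genes. *Crat*, *Abcd2* and *Pxmp2* were past a 2-fold decrease and *Far1* past a 2-fold increase under both scalings, while *Nudt7* was at 0.76 with total counts.

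**Figure D2:**
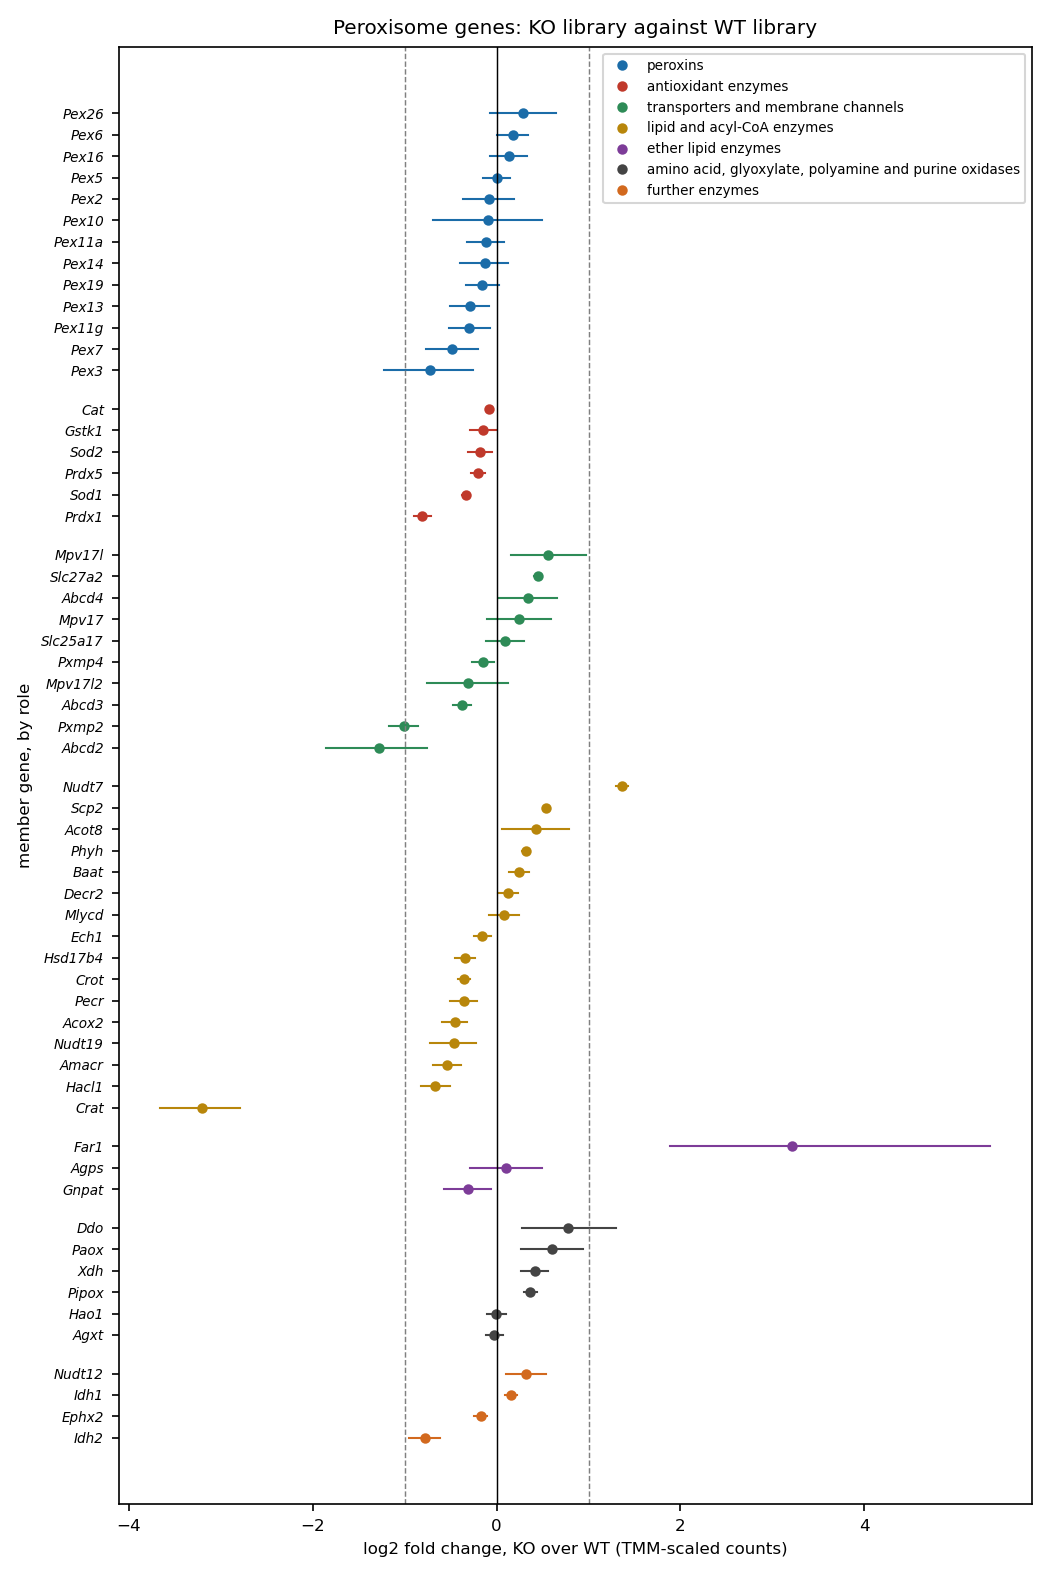
Log2 fold change of KO over WT (x axis, TMM-scaled counts) for 58 of the 62 members kept (y axis), grouped and coloured by role, with bars for the exact 95% binomial interval (counting error only) and dashed lines at 2-fold. *Crat* at -3.20 and *Far1* at 3.22 stand apart from the rest, and no peroxin or antioxidant enzyme reaches a dashed line.

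The peroxins showed no member past 2-fold in either direction, whereas all but *Pex5l* had enough counts to be kept. Their 15 log2 fold changes ran from -0.73 for *Pex3* to 0.29 for *Pex26*, with a median of -0.09, and 10 of the 15 were below 0. Together the 16 listed peroxins took 0.0588% of the counts outside the mitochondrial genome in KO liver and 0.0656% in WT liver. Peroxins were among the less abundant members, with a median of 2.96 FPKM in KO liver and 6.26 in WT liver, and *Pex16* was the highest at 10.7 and 14.9.

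*Pex5* encodes the receptor that carries most matrix proteins to the organelle. It had 635 counts in KO liver and 957 in WT liver, 6.07 and 9.20 FPKM. Its log2 fold change was 0.00 (-0.15 to 0.15), which is also the median of all genes. *Pex7*, the receptor for proteins with the other targeting signal, had 153 and 322 counts and a log2 fold change of -0.48 (-0.77 to -0.20). The receptors thus differed in the position of their intervals, that of *Pex7* lying wholly below 0.

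*Pex13* and *Pex14* form the site at which loaded receptors dock. They had 284 against 523 counts and 198 against 327 counts, with log2 fold changes of -0.29 (-0.50 to -0.08) and -0.13 (-0.39 to 0.13). *Pex2* and *Pex10* belong to the ring finger complex that tags the receptor for recycling, and both were at -0.09, with intervals across 0. *Pex6* encodes an ATPase that helps to pull the receptor back out of the membrane, and *Pex26* its anchor. *Pex6* had 501 counts and 7.47 FPKM in KO liver and 669 counts and 10.0 FPKM in WT liver, a log2 fold change of 0.17 (0.01 to 0.34). *Pex26* was at 0.29 (121 against 149 counts), with an interval that reached across 0. Both of these export genes were therefore on the upper side, by at most 1.22-fold, while both docking genes were on the lower side. With total counts as the scale all 4 were below 0.

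Membrane assembly rests on *Pex3*, *Pex16* and *Pex19*. *Pex19*, the carrier of newly made membrane proteins, had 409 counts and 5.11 FPKM in KO liver and 686 counts and 8.63 FPKM in WT liver, a log2 fold change of -0.15 (-0.33 to 0.02). *Pex3*, its docking partner, had 52 and 130 counts and the lowest value of the peroxins, -0.73 (-1.22 to -0.26). *Pex16*, which recruits *Pex3*, was at 0.13 (353 against 486 counts). The 3 genes of this step did not share a direction.

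PEX11 proteins elongate the membrane before division. *Pex11a*, the form induced by PPARα agonists in rodent liver, had 342 and 560 counts and a log2 fold change of -0.12 (-0.32 to 0.08). *Pex11g* was at -0.29 (266 against 492 counts, -0.52 to -0.08). Both were below 0, and the interval of *Pex11g* lay wholly there.

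The antioxidant enzymes were all on the lower side in KO liver, none of them past 2-fold. All 6 had a counting interval wholly below 0, as had 26.2% of all genes kept, and their median log2 fold change was -0.19. These enzymes were better counted than most genes, so their intervals are narrow and that share is not a like comparison. Together they took 0.361% of the counts outside the mitochondrial genome in KO liver and 0.444% in WT liver. Even the least abundant of them, *Sod2*, had 15.9 FPKM in KO liver and 27.2 in WT liver.

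*Cat* encodes catalase, which converts the hydrogen peroxide made by the oxidases to water and oxygen. It had 12729 counts and 306 FPKM in KO liver and 20388 counts and 494 FPKM in WT liver, a log2 fold change of -0.09 (-0.12 to -0.06). *Sod1*, the copper-zinc superoxide dismutase, found mainly in the cytosol, was the most abundant member per length in both libraries. It had 5471 counts and 639 FPKM against 10393 counts and 1222 FPKM, a log2 fold change of -0.33 (-0.38 to -0.29). *Prdx5*, a peroxiredoxin found in several compartments, had 2226 counts and 43.4 FPKM against 3861 counts and 75.7 FPKM, or -0.20 (-0.28 to -0.13). The lowest value belonged to *Prdx1*, a mainly cytosolic peroxiredoxin, with 1233 counts in KO liver and 3250 in WT liver, 22.8 and 60.4 FPKM. Its log2 fold change was -0.81 (-0.90 to -0.71), just short of the 2-fold line. *Sod2*, the mitochondrial superoxide dismutase, was at -0.18 (803 against 1370 counts), and *Gstk1*, a kappa class glutathione transferase, at -0.15 (672 against 1123 counts). The peroxidases and dismutases with a main home outside the peroxisome thus lay further below 0 than catalase did.

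**Figure D3:**
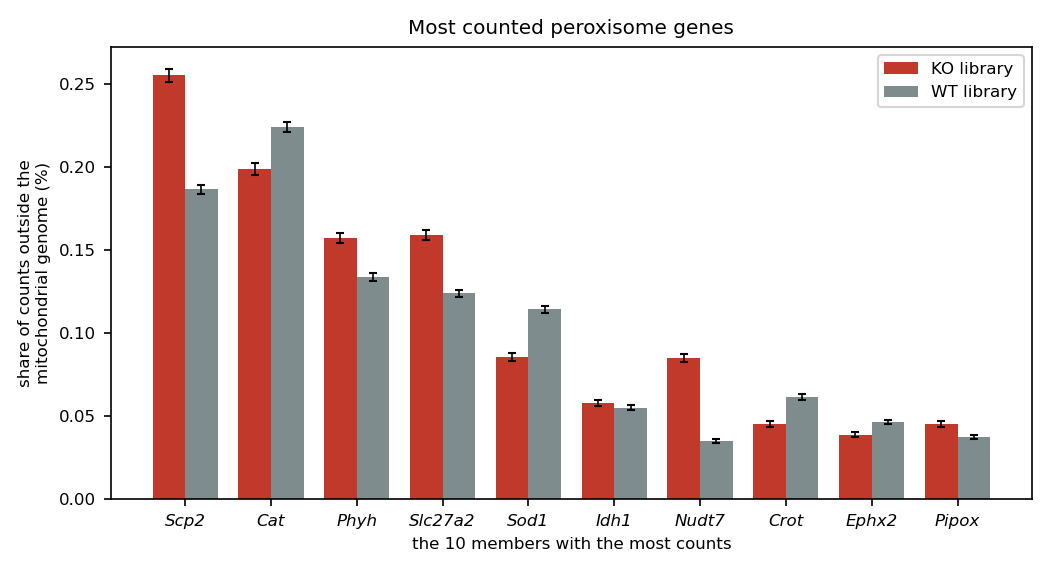
Share of the counts outside the mitochondrial genome (y axis, %) taken by each of the 10 members with the most counts (x axis) in the KO and WT libraries, with exact 95% binomial intervals that cover counting error only. *Scp2*, *Phyh*, *Slc27a2*, *Idh1*, *Nudt7* and *Pipox* take a larger share in KO, and *Cat*, *Sod1*, *Crot* and *Ephx2* a smaller one.

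Among the transporters and membrane channels 2 of 11 passed a 2-fold decrease, *Abcd2* and *Pxmp2*, and none passed a 2-fold increase. Of all genes kept, 9.94% passed a 2-fold decrease and 9.46% a 2-fold increase. The median of the 11 was 0.07, with 5 below 0 and 6 above. The group's share of counts outside the mitochondrial genome was 0.214% in KO liver and 0.197% in WT liver, and most of it came from *Slc27a2*.

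*Abcd2* encodes a transporter that brings very long-chain and polyunsaturated acyl-CoA into the peroxisome. It had 37 counts and 0.505 FPKM in KO liver and 136 counts and 1.87 FPKM in WT liver. It was 2.42-fold lower, a log2 fold change of -1.28 (-1.85 to -0.75). The gene lies at chr15:91145884-91191807 on the minus strand in the deposited table, which is not the extent GENCODE gives it, and no other annotated gene overlaps its exons. No other transporter of its family passed the 2-fold line. *Abcd3*, the carrier of branched-chain and bile acid precursors and the most abundant of the family, had 1214 counts and 10.1 FPKM against 2376 counts and 19.8 FPKM, or -0.38 (-0.48 to -0.28). *Abcd4*, a lysosomal cobalamin carrier of the same family, was at 0.34 (157 against 187 counts).

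*Pxmp2* encodes a channel of the peroxisomal membrane. It had 444 counts and 15.7 FPKM in KO liver and 1346 counts and 47.9 FPKM in WT liver, 2.01-fold lower, or -1.01 (-1.17 to -0.85) on the log2 scale. This is the member nearest the 2-fold line from inside, and its interval spans that line, while *Prdx1* at -0.81 is the nearest from outside. Among genes with at least 50 counts, whose TMM factors differ slightly, *Pxmp2* was at -0.99 and no longer past 2-fold. *Pxmp2* lies at chr5:110274282-110286186 on the minus strand (GRCm38), and 10.8% of its exon bases are overlapped on the other strand by *Gm15788*, which had 0 counts in KO liver and 2 in WT liver. *Pxmp4*, another peroxisomal membrane protein, had 958 counts and 22.0 FPKM against 1602 counts and 37.0 FPKM, a log2 fold change of -0.15 (-0.27 to -0.03).

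*Slc27a2*, which activates very long-chain and bile acids at the membrane, was by far the most counted gene of the group. It had 10194 counts and 181 FPKM in KO liver and 11255 counts and 201 FPKM in WT liver, a log2 fold change of 0.45 (0.41 to 0.49). *Slc25a17*, the carrier of coenzyme A and other nucleotides, was at 0.09 (332 against 471 counts). The *Mpv17* relatives of *Pxmp2* were spread around 0. *Mpv17l* was at 0.56 (103 against 105 counts), *Mpv17* at 0.24 (125 against 159 counts) and *Mpv17l2*, a mitochondrial protein, at -0.31 (69 against 129 counts). *Mpv17* shares 23.2% of its 51-base words with the listed gene *Gm29609*, and the counts of both, summed after the data had been seen, gave a log2 fold change of 0.03.

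The enzymes of lipid and acyl-CoA handling held the lowest member and the highest well-counted member of the set. Of 16 listed and kept, *Nudt7* passed a 2-fold increase and *Crat* a 2-fold decrease, beside 9.46% and 9.94% of all genes kept. The median was -0.25, with 9 of the 16 below 0. Of the 16 intervals, 9 lay wholly below 0 and 6 wholly above it.

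*Crat* encodes carnitine acetyltransferase, which moves acetyl groups from coenzyme A to carnitine in peroxisomes and mitochondria. It had 49 counts and 0.294 FPKM in KO liver and 684 counts and 4.13 FPKM in WT liver. It was 9.19-fold lower, a log2 fold change of -3.20 (-3.66 to -2.79), the lowest of all members. The gene lies at chr2:30400471-30415813 on the minus strand (GRCm38). *Gm16323* overlaps 7.63% of its exon bases on the other strand and had 0 counts in both libraries. *Crot*, which does the same for medium-chain acyl groups in the peroxisome, had 2896 counts and 37.7 FPKM against 5592 counts and 73.4 FPKM, or -0.36 (-0.42 to -0.29). The acyltransferases for short and medium chains were thus both on the lower side, but only *Crat* past 2-fold.

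*Nudt7* encodes a peroxisomal hydrolase that cleaves coenzyme A and acyl-CoA. It had 5445 counts and 50.3 FPKM in KO liver and 3190 counts and 29.7 FPKM in WT liver, 2.57-fold higher, or 1.36 (1.30 to 1.43) on the log2 scale. No other member past 2-fold had as many counts. The gene lies at chr8:114133557-114154739 on the plus strand (GRCm38), with no overlapping exon of another gene and no 51-base word shared with another gene. *Nudt19*, a related peroxisomal hydrolase best known from kidney, had 197 counts and 3.95 FPKM against 411 counts and 8.28 FPKM, or -0.47 (-0.72 to -0.22). The coenzyme A hydrolases therefore differed in direction, and the order of the values did not depend on the scaling. *Acot8*, an acyl-CoA thioesterase, was at 0.42 (123 against 138 counts, 0.06 to 0.79).

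*Scp2* encodes sterol carrier protein 2 and the thiolase that ends the shortening of branched chains and bile acid side chains. It had 16356 counts and 210 FPKM in KO liver and 16951 counts and 219 FPKM in WT liver, a log2 fold change of 0.54 (0.51 to 0.57). *Scp2* shares 41.2% of its 51-base words with the listed pseudogene *Scp2-ps2*, and the summed counts gave 0.47. *Phyh*, the hydroxylase that begins the removal of phytanic acid, had 10066 counts and 344 FPKM against 12161 counts and 418 FPKM, or 0.32 (0.28 to 0.36). *Hacl1*, the lyase of the next step of that route, was at -0.67 (462 against 1105 counts, -0.83 to -0.51), although 52.2% of its 51-base words also occur in *Gm49387*, which the table does not list. The enzymes of the route therefore lay on both sides of 0.

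Bile acid side chains are shortened by *Amacr*, *Acox2*, *Hsd17b4* and *Scp2* in turn, and *Baat* then attaches taurine or glycine. *Amacr*, the racemase, was at -0.54 (509 against 1114 counts). *Acox2*, the branched-chain oxidase, was at -0.46 (679 against 1405 counts), and *Hsd17b4*, the multifunctional enzyme, at -0.35 (1052 against 2016 counts). The first 3 steps were on the lower side with intervals wholly below 0, whereas *Scp2* and *Baat* were on the upper side, *Baat* at 0.24 (1213 against 1545 counts, 0.13 to 0.35). None of the 5 passed 2-fold. Among the auxiliary enzymes of unsaturated chains, *Ech1* was at -0.16 (1529 against 2569 counts), *Pecr* at -0.36 (590 against 1141 counts) and *Decr2* at 0.12 (1141 against 1578 counts). *Mlycd*, malonyl-CoA decarboxylase, was at 0.08 (514 against 734 counts).

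**Figure D4:**
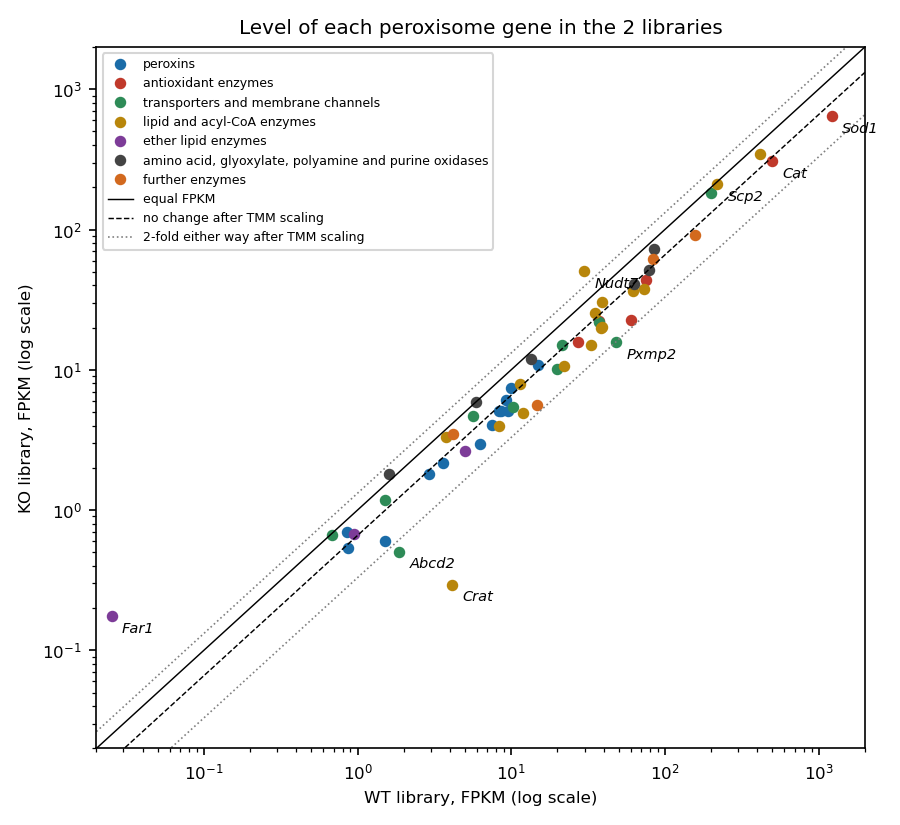
FPKM of 58 of the 62 kept members in WT liver (x axis, log scale) and in KO liver (y axis, log scale), coloured by role. The solid line marks equal FPKM, the dashed line no difference after TMM scaling and the dotted lines 2-fold either way, with *Crat* and *Abcd2* below and *Far1* and *Nudt7* above the dotted lines and *Pxmp2* on the lower one.

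Ether lipid synthesis begins in the peroxisome and needs a fatty alcohol made at its surface. *Far1*, the reductase that makes this alcohol, had 28 counts and 0.175 FPKM in KO liver and 4 counts and 0.0251 FPKM in WT liver. The log2 fold change was 3.22 (1.88 to 5.37), a 9.31-fold difference on 32 counts in all. On the authors' FPKM, with 0.1 added before the log was taken, it was 1.14. *Far1* lies at chr7:113513834-113571511 on the plus strand (GRCm38), and the antisense gene *Far1os*, which overlaps 0.993% of its exon bases, had 0 counts in both libraries. The other reductase, *Far2*, was at 0 in both libraries. *Gnpat* and *Agps* encode the acyltransferase and the synthase that build the ether bond. *Gnpat* had 196 counts and 2.64 FPKM against 368 counts and 5.00 FPKM, a log2 fold change of -0.32 (-0.57 to -0.06), and *Agps* 95 counts and 0.676 FPKM against 133 counts and 0.953 FPKM, or 0.11 (-0.29 to 0.50). *Far1* and *Agps* were below the median level of all genes kept and *Gnpat* above it, and the enzymes of the ether bond itself did not pass 2-fold.

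The oxidases and transaminase of amino acids, glyoxylate, polyamines and purines stood mostly on the upper side in KO liver. Of 8 listed, 6 were kept, none passed 2-fold, and the median was 0.39 with 4 intervals wholly above 0 and none below. Of all genes kept, 25.8% had an interval wholly above 0 and 26.2% one wholly below. *Pipox*, which oxidizes pipecolic acid and sarcosine, had 2902 counts and 72.1 FPKM in KO liver and 3395 counts and 84.9 FPKM in WT liver, or 0.37 (0.29 to 0.44). *Xdh*, which makes uric acid from purines mainly in the cytosol, was at 0.42 (722 against 815 counts). *Paox*, the polyamine oxidase, was at 0.60 (152 against 151 counts, 0.27 to 0.94), and *Ddo*, which oxidizes D-aspartate, at 0.78 (72 against 63 counts, 0.28 to 1.30). Of the 51-base words of *Paox*, 28.0% also occur in other genes, chiefly *Gm19680*, which is not among the listed genes. The genes of glyoxylate handling did not share this shift. *Hao1*, the oxidase that makes glyoxylate from glycolate, had 1328 counts and 41.2 FPKM against 2006 counts and 62.6 FPKM, or 0.00 (-0.10 to 0.10). *Agxt*, the transaminase that detoxifies glyoxylate, had 1640 counts and 51.2 FPKM against 2516 counts and 79.0 FPKM, or -0.03 (-0.12 to 0.07). With total counts as the scale, 4 of the 6 would lie below 0, *Paox* at 0.00 and *Ddo* at 0.18. *Hao2* had 0 counts in KO liver and 6 in WT liver, and *Dao* had none in either.

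The remaining enzymes ranged from -0.78 to 0.32, with a median of 0.12 over the 5 kept of 7 listed. *Idh1*, the NADP-dependent isocitrate dehydrogenase of cytosol and peroxisome, had 3694 counts and 61.7 FPKM in KO liver and 4989 counts and 83.9 FPKM in WT liver, or 0.16 (0.10 to 0.22). *Idh2*, its mitochondrial counterpart, had 383 counts and 5.60 FPKM against 994 counts and 14.6 FPKM, or -0.78 (-0.96 to -0.61). *Ephx2*, the soluble epoxide hydrolase, had 2477 counts and 91.9 FPKM against 4210 counts and 157 FPKM, or -0.17 (-0.25 to -0.10). The cytosolic and mitochondrial dehydrogenases thus lay on opposite sides of 0. *Nudt12*, which hydrolyses NADH, was at 0.32 (319 against 384 counts). *Nos2* had 0 counts in both libraries, and *Hmgcll1* and *Pex5l* had 0 in KO liver and 2 in WT liver.

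The set as a whole took 1.53% of the counts outside the mitochondrial genome in KO liver (1.518% to 1.537%, exact binomial) and 1.51% in WT liver (1.501% to 1.517%). Of all counts it took 0.738% and 1.04%. *Scp2*, *Cat*, *Slc27a2*, *Phyh* and *Sod1* were the 5 most counted members in both libraries and held 56.1% of the members' counts in KO and 51.9% in WT. The near-equal total outside the mitochondrial genome was made of a smaller share for the antioxidant enzymes and the peroxins and a larger share for the transporters and for the other enzymes, at 0.893% in KO liver and 0.802% in WT liver. The larger shares rested on a few abundant genes. They were *Slc27a2* (0.159% in KO against 0.124% in WT), *Scp2* (0.255% against 0.187%) and *Nudt7* (0.0850% against 0.0351%). After TMM scaling, 5 of the 11 transporters and 14 of the 30 other enzymes kept were below 0.

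Matches to the miR-182-5p seed were found in a like share of the members and of all genes. A 7-base match, TTGCCAA, was found in the 3′ UTR of 8 of the 62 members (12.9%) and of 12.0% of the 12503 genes with a UTR, and the 8-base match, TTGCCAAA, in 2 members (3.23%) and 4.98% of the genes. Among the 8 members were *Agps*, *Far1*, *Pex5*, *Pex7*, *Pex10*, *Pex19* and *Pipox*. Both matches in *Pex7* lie beyond the end of the gene in the deposited table. The median 3′ UTR length was 809 bases for the members and 1130 for all genes. The median log2 fold change of the 8 was 0.04, with 5 above 0 and 3 below, and that of the 54 members without a match was -0.10. Over all genes the median was -0.02 with a match and -0.01 without, so no such gap was seen there. Of the members whose sites are printed above, *Pex5* was at 0.00, *Pipox* at 0.37 and *Far1* at 3.22. The *Far1* site was printed because of that increase, so its value says nothing about members with a match. Of the other named members with a match, *Pex7* was at -0.48, *Pex19* at -0.15, *Pex10* at -0.09 and *Agps* at 0.11.

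In the promoters, from 250 bases before to 50 bases after the start of the gene (RefSeq), the letters that the PPAR element repeats (AGGTCA, either strand) were found in 8 of the 49 members with an entry (16.3%) and in 18.1% of 27025 genes. The full direct repeat with 1 base between, AGGTCANAGGTCA, was in none of the 49 and in 0.0481% of all. No match says only that these letters are not in this window.

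The rest of the KEGG pathway, which the members leave out, is chiefly fatty acid activation and oxidation. Of its 14 genes 13 were kept, 2 passed a 2-fold increase and 2 a 2-fold decrease, and the median was -0.37. Among all genes kept, 9.46% passed a 2-fold increase and 9.94% a 2-fold decrease. *Acox3*, a branched-chain acyl-CoA oxidase, was at 4.18 (199 against 16 counts), and *Acsl1*, a long-chain acyl-CoA synthetase, at 1.67 (691 against 327 counts). *Ehhadh*, the peroxisomal bifunctional enzyme, was at -1.55 (346 against 1532 counts), and *Acsl5*, another synthetase, at -1.23 (970 against 3442 counts).

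Genes of peroxisome division, turnover and metabolism outside the annotation were read from 3 lists, beside all genes kept, of which 50% lay below 0 and 9.94% passed a 2-fold decrease. Of 8 genes of division and membrane contact, 7 were kept, 6 of them below 0 and none past 2-fold, with a median of -0.31. *Mff*, which recruits the fission GTPase, was nearest to the line at -0.99 (40 against 120 counts). Of 7 genes of peroxisome turnover and matrix proteolysis, 6 were found by name and kept, 5 of them below 0, and 1 passed a 2-fold decrease. This was *Nbr1*, an autophagy receptor for peroxisomes, at -2.90 (107 against 1204 counts), while the median of the 6 was -0.24. The gene not found by name, *March5*, is listed as 5-Mar, a symbol turned into a date. It had 358 against 773 counts and a log2 fold change of -0.52 (-0.70 to -0.34), and it does not enter these counts or the median. Of 9 further matrix enzymes, 8 were kept, 7 of them below 0, with a median of -0.56. *Acnat1*, an acyl-CoA amino acid transferase, passed a 2-fold increase at 1.18 (101 against 67 counts). *Acot3* and *Acot6*, acyl-CoA thioesterases, passed a 2-fold decrease with 3 against 34 counts and 5 against 30 counts. *Uox*, urate oxidase, was at -0.06 (4183 against 6566 counts).

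Genes that regulate PPARα or answer to it were read from separate lists. They stand beside all genes kept, of which 9.46% passed a 2-fold increase and 9.94% a 2-fold decrease. Of 12 PPAR regulators, *Lpin1*, a coactivator and phosphatidate phosphatase, was higher at 3.32 (348 against 52 counts) and *Pparg*, the form of the receptor best known from fat tissue, lower at -1.15 (24 against 81 counts). *Ppara* itself had 61 and 60 counts and a log2 fold change of 0.61 (0.08 to 1.15), and the median of the 12 was 0.16. Of 13 known PPARα targets outside the members, 12 were kept and 5 passed a 2-fold decrease, with none past a 2-fold increase and a median of -0.46. The 5 were *Cyp4a14* at -3.44 (121 against 1985 counts), *Pdk4* at -3.25 (15 against 221 counts), *Acot1* at -2.40 (15 against 122 counts), *Ehhadh* at -1.55 and *Cyp4a10* at -1.52 (624 against 2699 counts). *Pex11a*, the gene of this target list that is also a member, stood at -0.12, and *Cat*, another member with a PPARα response in rodents, at -0.09. The other members were not sorted by their response to PPARα, so these values do not stand for all PPARα targets among the members. The members ranged from -3.20 for *Crat* to 3.22 for *Far1*.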

How the data were processed

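Poly(A) RNA from liver was sequenced on Illumina instruments, with 1 library per genotype. The authors deposited raw read counts per gene, and the FPKM they computed from them with the total count as the scale. The submitters' processing notes name HISAT2 2.0.4, StringTie and edgeR without roles, and hg38 as the build. The identifiers are mouse Ensembl identifiers, and 34267 of the 34745 were found in GENCODE M21 (GRCm38), 80.8% with the same coordinates. Of the 68 members, 53 had the same coordinates. The strand setting of the counting is not given in the sources used here, so reads of overlapping genes cannot be told apart.

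The tools were edgeR 4.0.16 and DESeq2 1.42.0 (R 4.3.3) and scipy 1.17.1, numpy 2.4.6, pandas 2.3.3 and matplotlib 3.10.9 (Python 3.11.15). Only genes reaching 10 counts over the pair of libraries were kept. TMM factors came from edgeR, and log2 fold changes were computed directly from the counts and scaled library sizes, with a prior count of 0.5. A gene was called at 2-fold with no test, because 1 library per genotype leaves no replicate error. Intervals of shares and fold changes are exact 95% binomial (Clopper-Pearson) intervals. PCR reads without molecular identifiers are not independent molecules, so these cover counting error only. The steps were tested on simulated counts.

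Every member could be named, and those past 2-fold and the 3 most counted of each role were given in full. Gene lists came from textbook knowledge, and the members and lists were chosen with earlier results of these data known. Seed matches were sought in the longest annotated 3′ UTR and shared sequence as 51-base words of transcripts. The deposited table held 0 further columns of values per sample. Alternatives were other scalings, a prior count of 5, FPKM plus a pseudocount of 0.1, minimums of 1 and 50 counts, calls that also needed an exact binomial test or edgeR's exact test with an assumed coefficient of variation of 0.1, 0.2 or 0.4, and other choices of members. Summing members with their near copies was added after the data had been seen. The planned description by targeting signal was not made, since no protein sequences were used here. Some genes enter the counts and medians but are not reported here by name.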

Additional observations from a re-analysis of the deposited data

How the results depend on the processing

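No paired analysis was possible because there was 1 library for each genotype, and for the same reason none could be left out. The 2 increases, 3 decreases and median of -0.09 of the members stayed within 1.5 times, or within the counting interval, with scaling by the upper quartile, by DESeq2's size factors or by total counts without mitochondrial genes, a prior count of 5, an exact binomial test, an assumed coefficient of variation of 0.1, without members of other compartments and with near copies summed. With total counts there were 1 increase and 11 decreases with a median of -0.69, and with the authors' FPKM 1 increase and 11 decreases with a median of -0.64. Both scales count the mitochondrial genes, and all genes then had medians of -0.60 and -0.54. A minimum of 1 count gave 6 decreases, since *Hao2*, *Hmgcll1* and *Pex5l* at 0 in KO liver were then kept, and a minimum of 50 counts gave 1 increase, since *Far1* was dropped, and 2 decreases, since *Pxmp2* moved to -0.99. An assumed coefficient of variation of 0.2 left 1 decrease, *Crat*, and one of 0.4 left 0 increases and 0 decreases. The whole pathway held 4 increases and 5 decreases.

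The counts of 1 library per genotype cannot show how far mice of a genotype differ, and genes under about 50 counts, such as *Far1* and *Crat* in KO liver, are also limited by depth.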

Other observations

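Ratios between related members within each library do not depend on the scaling. For 9 pairs, chosen after their values were seen, the change of the ratio from WT to KO is given on the log2 scale with a 95% interval that covers counting error only. The ratio of *Nudt7* to *Nudt19* counts, both coenzyme A hydrolases, was 27.6 in KO liver and 7.76 in WT liver, a change of 1.83 (1.58 to 2.09). The ratio of *Crat* to *Crot*, the carnitine acyltransferases for short and medium chains, was 0.0169 and 0.122, a change of -2.85 (-3.28 to -2.43). These pairs moved most, in opposite directions.

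The ratio of the cytosolic and peroxisomal *Idh1* to the mitochondrial *Idh2* was 9.64 in KO liver and 5.02 in WT liver, a change of 0.94 (0.76 to 1.12). That of *Abcd2* to *Abcd3* changed by -0.91 (-1.44 to -0.38). The membrane protein pair *Pxmp2* to *Pxmp4* changed by -0.86 (-1.05 to -0.67) and the peroxiredoxin pair *Prdx1* to *Prdx5* by -0.60 (-0.72 to -0.48). The import receptors *Pex5* to *Pex7* changed by 0.48 (0.17 to 0.79). The dismutases *Sod1* to *Sod2* changed by -0.16 (-0.29 to -0.02), and *Pex11a* to *Pex11g* by 0.18 (-0.11 to 0.47), the smallest shifts beside those of the other pairs. With 1 library per genotype none of these could be set against the spread between mice.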
